A study of Homo sapiens with 2 samples.

Results

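The liver-type plasma protein genes are 10 genes best known as products of the hepatocyte: ALB, TTR, APOB, APOA1, APOH, FGA, FGB, FGG, AGT and AADAC. They were taken by name, through every probe set whose platform annotation gave exactly 1 of these symbols. This gave 20 probe sets for the 10 genes, of 41092 probe sets with a single symbol and 19775 genes on the array. All 10 genes were represented, 4 of them by 1 probe set and 6 by several. AADAC alone is no plasma protein but an enzyme of the endoplasmic reticulum, expressed mainly in liver and intestine.

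The values come from SW620, an established human colorectal cancer line started from tumour cells in a lymph node. In the SOX2 knockdown group, a short hairpin RNA against SOX2 had been brought in with a lentivirus. SOX2 is a transcription factor best known from embryonic stem cells and neural progenitors. In the mock knockdown group, the lentivirus brought in a hairpin with no target. Both groups were kept in RPMI medium, and both were profiled as total RNA on an Affymetrix expression array to find genes under the control of SOX2. With 1 array per group nothing is replicated, no difference was tested, and precision is limited by the number of arrays. Whether the cells were clones or a mixed infected population, and how long after infection they were taken, the labels do not say. The sample titles end in KO while the source names speak of knockdown, and a free description attached to both samples speaks of livers of mice lacking ECM1, against the cell line given everywhere else.

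Hepatocytes make most of the protein of blood plasma. Albumin and transthyretin carry ligands, the apolipoproteins build lipoprotein particles, the 3 fibrinogen chains form the clot, and angiotensinogen is the precursor of angiotensin. Many of these genes are switched on together by a small set of liver transcription factors, several of which also act in the intestine, and the small intestine is a further known site of APOB and APOA1 expression. In adult colon epithelium these genes are not typical products.

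On both arrays most of the liver-type genes were dim. Intensities are on a linear scale. The median intensity over both arrays without control probe sets, 68.5, served as a floor under which values were not read. A gene is represented by its brightest probe set, the one with the highest mean log2 value over both arrays, and is called measured when this probe set reached the floor on at least 1 array. Of the 10 genes 4 were measured, whereas 68.8% of all 19775 genes were. ALB, APOB, FGA, FGB, FGG and AGT stayed under the floor on both arrays in every probe set. On the SOX2 knockdown array 4 of the 10 genes reached the floor, namely APOH, AADAC, TTR and APOA1, against 2 on the mock array, TTR and APOA1. These counts differ by APOH and AADAC alone, described below, and are no separate result. Of all 19775 genes, 13609 were measured and 12412 reached the floor on both arrays. In bulk RNA, fewer cells that express a gene and less RNA per cell cannot be told apart.

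**Figure D1:**
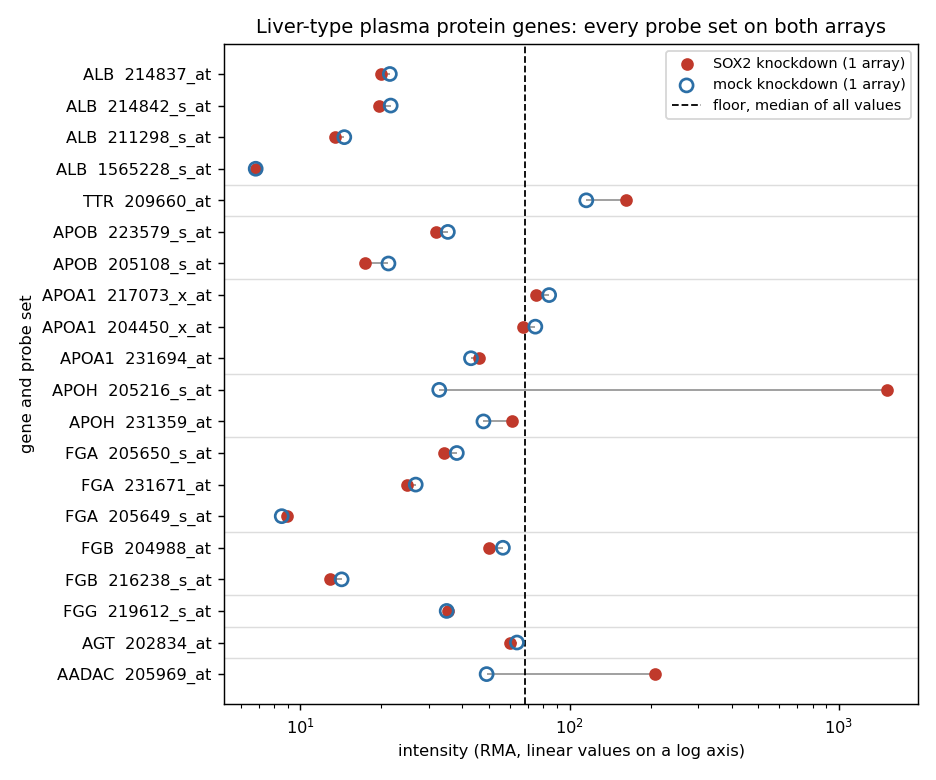
Intensity of each of the 20 probe sets of the 10 liver-type genes (log axis) on the SOX2 knockdown array (filled red) and the mock knockdown array (open blue), 1 array each, with the floor of 68.5 as a dashed line. APOH probe set 205216_s_at and AADAC lie to the right of the floor only on the SOX2 knockdown array, and 15 probe sets lie left of it on both arrays.

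Between the arrays, 2 liver-type genes differed by 2-fold or more, APOH and AADAC, both higher in SOX2 knockdown, and none was lower by this much. Differences are log2 values, those of SOX2 knockdown minus those of mock knockdown. A value under the floor was put at the floor for a fold or difference called "at least", which is then a lower bound. Of all 13609 measured genes, 8.44% were at least 2-fold higher and 7.29% at least 2-fold lower. Counted over all genes of the array, measured or not, 5.81% were higher and 5.02% lower by this limit, against 2 and 0 of the 10 liver-type genes. APOH and AADAC were measured only because of their SOX2 knockdown values, so their share among the 4 measured genes carries no weight. Over all 10 genes, whatever their level, the median difference was -0.095, and over all genes of the array it was -0.0048. The median of the 10 falls between ALB and AGT, both under the floor on both arrays, so no direction is read from it.

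APOH encodes beta-2-glycoprotein I, a plasma protein that binds phospholipids and modulates clotting. Its brightest probe set, 205216_s_at, had an intensity of 1512 on the SOX2 knockdown array, against 32.8 on the mock array. The mock value lay under the floor, so APOH was at least 22.1-fold higher, or by at least 4.46 on the log2 scale. Of the 13609 measured genes, 32 including APOH had a difference against the floor at least this large in the same direction. The other probe set of APOH, 231359_at, read 61.1 on the SOX2 knockdown array and 47.9 on the mock array, under the floor on both. The large difference of APOH therefore rests on 1 of its 2 probe sets, and the other, 0.35 higher as deposited, cannot be read at this level. With probe sets of the suffixes _x_at and _s_at left out, 205216_s_at was dropped and APOH was not measured.

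AADAC encodes arylacetamide deacetylase, an enzyme of the endoplasmic reticulum that hydrolyses esters and drugs and takes part in the mobilisation of stored fat. Its probe set, 205969_at, had an intensity of 207 on the SOX2 knockdown array and 49.2 on the mock array. AADAC was at least 3.02-fold higher, a log2 difference of at least 1.60, which 514 measured genes including AADAC reached. It has a single probe set, so no further reading of it exists on these arrays.

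TTR encodes transthyretin, the carrier of thyroxine and of retinol-binding protein. Its only probe set, 209660_at, read 162 on the SOX2 knockdown array and 115 on the mock array, both above the floor. The log2 difference of 0.49, or 1.40-fold, was short of the 2-fold limit. It was also of the size of the spread between probe sets of the same gene, an SD of 0.49 over 6440 genes with several probe sets at the floor or above. That spread holds no variation between cultures or arrays.

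ALB, the albumin gene and the most abundant plasma protein of the adult liver, gave no reading above the floor. Its 4 probe sets lay between 6.82 and 20.0 on the SOX2 knockdown array and between 6.82 and 21.7 on the mock array. The probe set 1565228_s_at had the same value on both arrays. The other probe sets of ALB differed by -0.11 to -0.15 as deposited, all under the floor.

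APOB and APOA1 are the structural proteins of triglyceride-rich lipoproteins and of HDL. APOB stood at 31.97 and 17.4 in its 2 probe sets on the SOX2 knockdown array, against 35.3 and 21.2 on the mock array, all under the floor. APOA1 lay close to the floor, with 74.9 on the SOX2 knockdown array and 84.0 on the mock array in its brightest probe set, 217073_x_at, a log2 difference of -0.17. A similar probe set of APOA1, 204450_x_at, read 67.3 on the SOX2 knockdown array and 74.6 on the mock array. The remaining one, 231694_at, read 46.0 and 43.0 on the same arrays, under the floor and in the other direction. Both brighter probe sets carry the suffix that marks probes able to match several transcripts.

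The fibrinogen genes FGA, FGB and FGG encode the chains of the clot protein and lie side by side on chromosome 4. FGA stood at 34.0, 24.9 and 8.93 in its 3 probe sets on the SOX2 knockdown array, against 38.1, 26.8 and 8.52 on the mock array. FGB stood at 50.3 and 12.8 on the SOX2 knockdown array, against 56.6 and 14.2 on the mock array. FGG read 35.3 on the SOX2 knockdown array and 35.0 on the mock array. None of the 6 fibrinogen probe sets reached the floor on either array. AGT, which encodes angiotensinogen, came nearest to the floor among the unmeasured genes, with 60.1 on the SOX2 knockdown array and 63.8 on the mock array. Over the 15 probe sets of liver-type genes under the floor on both arrays, differences as deposited ran from -0.29 to 0.35, 10 below 0, 4 above and 1 at 0. No direction is read from these values.

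**Figure D2:**
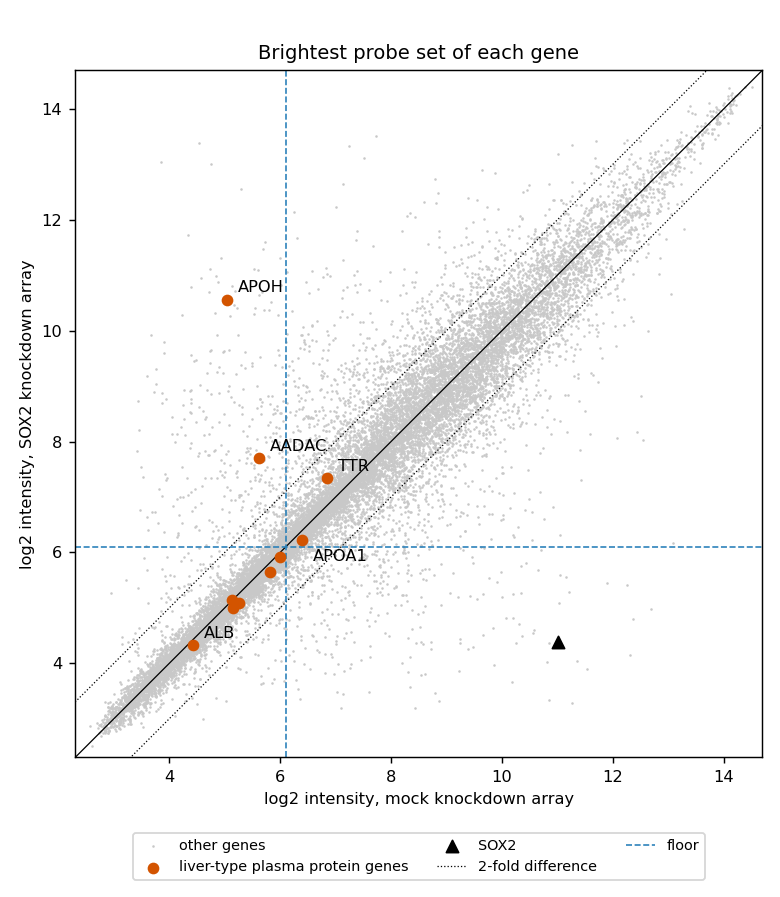
Log2 intensity of the brightest probe set of each of 19775 genes on the mock knockdown array (x) and the SOX2 knockdown array (y), with the liver-type genes in orange, SOX2 as a triangle, the floor dashed and the limits of 2-fold dotted. APOH and AADAC lie above the dotted band and left of the floor, TTR and APOA1 lie inside the band, and the other 6 lie inside it under the floor on both axes.

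The array checks touch these readings as follows. SOX2 itself read 20.9 on the SOX2 knockdown array and 2077 on the mock array in its brightest probe set, 228038_at, at least 30.3-fold lower. A further SOX2 probe set, 213721_at, read 120 and 333 on the same arrays, and 2 more stayed under the floor on both. All 11 markers of colorectal epithelium were measured, with 1 past the 2-fold limit in each direction. They were LGALS4, at 6010 in SOX2 knockdown against 39.1 in mock, and VIL1, at 867 against 2063. That is 9.09% each way, near the 8.44% upwards and 7.29% downwards of all measured genes. LGALS4 was measured only through its SOX2 knockdown value. The other VIL1 probe sets were 205506_at, which differed by -1.08, and 1554943_at and 1554945_x_at, which differed by only -0.19 and -0.26. The summed intensity of the 11 markers was 69409 in SOX2 knockdown and 50722 in mock. Of these markers EPCAM, KRT8, KRT18 and KRT19 read between 9898 and 21262 on the SOX2 knockdown array and between 8910 and 17410 on the mock array. The colonic markers GPA33 and CEACAM5 were near the floor on both arrays, at 84.3 and 97.8 in SOX2 knockdown and 96.9 and 104 in mock.

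No measured marker of hepatocyte metabolism differed by 2-fold. Of 19 such genes 16 were matched to a probe set and 6 were measured, with differences from -0.67 for ASGR1 to 0.14 for CYP3A4. The summed intensity of all 16 matched genes, those under the floor included, was 786 on the SOX2 knockdown array and 820 on the mock array. The enzymes ARG1, CPS1, CYP2C8, G6PC1, HAO1, HPD, PCK1 and TDO2 and the transporters SLC10A1 and SLC2A2 were under the floor on both arrays. Of 9 enterocyte markers 4 were measured and none differed by 2-fold. By this limit 8.44% of all measured genes were higher and 7.29% lower. The summed intensity of all 9 enterocyte markers, those under the floor included, was 576 in SOX2 knockdown and 553 in mock. The fatty acid binding proteins FABP1 and FABP2, the disaccharidase SI, the peptidase ANPEP and the transporter SLC26A3 were under the floor on both arrays.

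Among markers of other cell types, LYZ and CD14 of the leukocyte list were higher on the SOX2 knockdown array. They were the only 2 of 5 matched leukocyte genes to be measured, LYZ, the lysozyme gene, with 11691 in SOX2 knockdown against 213 in mock and CD14, measured only through its SOX2 knockdown value, with 156 against 43.6. The summed intensity of the 5 was 11984 in SOX2 knockdown and 387 in mock. PTPRC, CD3E and CSF1R, which define leukocytes more narrowly, were under the floor on both arrays. As deposited they differed by 0.26, -0.0015 and 0.084. Of 6 fibroblast markers 4 were measured, with LUM at 17.8 in SOX2 knockdown and 71.7, just over the floor, in mock. COL1A2 and COL3A1 were under the floor on both arrays. The summed intensity of all 6 fibroblast markers was 519 in SOX2 knockdown and 619 in mock. Of 5 endothelial markers PECAM1 and VWF were measured, at 105 and 93.4 in SOX2 knockdown and 123 and 102 in mock. CDH5, KDR and TEK were under the floor. The summed intensity of all 5 endothelial markers was 298 in SOX2 knockdown and 327 in mock. The part of these markers in the difference of APOH was not tested.

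Other plasma proteins of the liver held 2 genes that were several-fold higher on the SOX2 knockdown array. Of 32 listed genes 27 were matched and 17 measured, of which 2, or 11.8%, passed the 2-fold limit upwards and none downwards. Over all measured genes the shares were 8.44% and 7.29%, so the share upwards of this list lay near that of all genes. The median of the listed plasma proteins was 0.00, and 3.20 with the floor at the 75th percentile of all values, which SERPINA1 and RBP4 alone of these genes reach. SERPINA1, the gene of alpha-1-antitrypsin, read 4301 on the SOX2 knockdown array and 313 on the mock array and was 13.8-fold higher, a log2 difference of 3.78. Of its other probe sets, 202833_s_at differed by 3.94 and 230318_at by at least 1.53, while 211428_at was under the floor on both arrays. RBP4, the retinol carrier that circulates bound to transthyretin, read 362 in SOX2 knockdown and 58.8 in mock and was at least 5.28-fold higher. This probe set of RBP4 reached the floor only on the SOX2 knockdown array. The other probe set of RBP4, 222049_s_at, read 92.6 and 87.1 on these arrays, a difference of 0.09. The remaining 15 measured genes, among them TF, HP, HPX, AHSG and AFP, lay between -0.30 and 0.63.

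**Figure D3:**
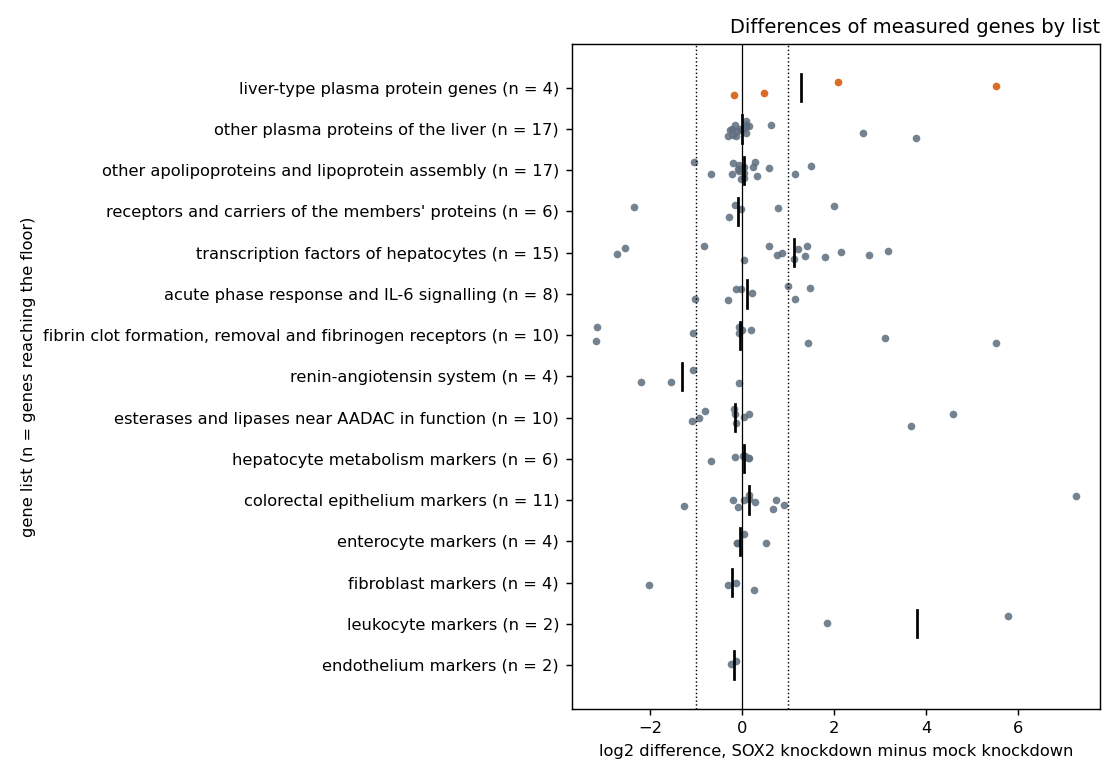
Log2 difference (SOX2 knockdown minus mock knockdown, as deposited) of each measured gene, grouped by list, with the liver-type genes in orange at the top, a black bar at the median of each list and dotted lines at 2-fold. Among liver-type genes APOH at 5.53 and AADAC at 2.07 lie to the right of the band, and TTR at 0.49 and APOA1 at -0.17 within it.

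A gene that APOB needs to take up lipid was under the floor. MTTP, the transfer protein of lipoprotein assembly, read 9.80 on the SOX2 knockdown array and 11.9 on the mock array, and under the floor on both arrays were also APOA2, APOC3, APOF and LPA. Of 22 genes in this list 17 were measured, with 2 past the limit upwards and 1 downwards and a median of 0.04. The shares of all measured genes past it were 8.44% upwards and 7.29% downwards. DGAT1, which makes triglyceride, read 313 in SOX2 knockdown and 110 in mock, a difference of 1.51, and APOL1, an apolipoprotein of HDL, 341 and 153, a difference of 1.15. APOC1 read 138 in SOX2 knockdown and 283 in mock, a difference of -1.04, and its other probe set differed by -0.34.

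Receptors and carriers of the liver-type proteins went both ways, with 6 of 9 matched genes measured, 1 past the limit in each direction and a median of -0.09. Among all measured genes 8.44% were past it upwards and 7.29% downwards. ABCG1, a cholesterol exporter to HDL, read 253 in SOX2 knockdown and 63.4 in mock, at least 3.70-fold higher. VLDLR, a receptor for triglyceride-rich particles, read 43.6 in SOX2 knockdown and 223 in mock, at least 3.25-fold lower. ABCG1 was measured only through its SOX2 knockdown value and VLDLR only through its mock value. FCGRT, the receptor that rescues albumin from breakdown, read 427 in SOX2 knockdown and 247 in mock, a difference of 0.79.

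Among transcription factors that act in hepatocytes, more were higher on the SOX2 knockdown array than lower. Of 23 listed factors 17 were matched and 15 measured, 8 of them, or 53.3%, past the 2-fold limit upwards and 2, or 13.3%, downwards, where 8.44% and 7.29% of all measured genes were. On the mock array 12 of the 15 reached the floor. FOXA1, ONECUT2 and NR5A2 were measured only through their SOX2 knockdown values, so the share upwards depends on how genes entered and is a description alone. Their median difference was 1.12, and 0.59 when each factor was given its probe set of smallest difference. FOXA1, a pioneer factor of endoderm, read 361 in SOX2 knockdown and 39.9 in mock, at least 5.26-fold higher. GATA6, a factor of endoderm and gut, read 727 in SOX2 knockdown and 108 in mock, 6.73-fold higher, but its other probe set differed by only 0.19. ONECUT2, a relative of the liver factor ONECUT1, read 257 and 58.0 on these arrays, at least 3.75-fold higher. In the other direction FOXA2, a close relative of FOXA1, read 138 in SOX2 knockdown and 903 in mock, 6.56-fold lower, with a second probe set at least 5.41-fold lower and the remaining one, at 87.0 and 84.8, differing by 0.04. PROX1, which specifies liver and lymphatic cells, read 163 in SOX2 knockdown and 946 in mock, 5.82-fold lower. Of its other probe sets, 228656_at was 5.65-fold and 207401_at at least 2.84-fold lower, while 242119_at read 144 and 179, a difference of -0.31. The remaining higher factors were CEBPD, HNF4G, NR0B2, PPARA and RXRA, with differences from 1.12 to 1.81. CEBPA, a factor of mature hepatocytes, differed by 0.75, and CEBPB, which drives acute phase genes, by 0.59.

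Of the acute phase and interleukin-6 genes, the pathway that raises fibrinogen in the liver, 8 of 13 matched genes were measured, 3 past the limit upwards and 1 downwards. Beside this, 8.44% of all measured genes were past it upwards and 7.29% downwards. The median of the acute phase list was 0.10, and 1.01 when the floor was raised to the 75th percentile. The receptor subunit IL6ST read 1653 in SOX2 knockdown and 747 in mock, a difference of 1.15, and IL6R 110 and 221, a difference of -1.02. STAT3, the factor downstream of them, read 983 in SOX2 knockdown and 490 in mock, a difference of 1.01 that lay at the limit. Of its other probe sets, 225289_at differed by 1.08 and 208992_s_at by 0.68, while 243213_at was under the floor on both arrays. PIAS3, an inhibitor of STAT3, differed by 1.48. SOCS3, a feedback target of STAT3, read 155 in SOX2 knockdown and 157 in mock. CRP and LBP, acute phase proteins, were under the floor on both arrays, as fibrinogen was. FGL1 and HAMP of the same list were measured, at 127 and 82.1 in SOX2 knockdown and 139 and 70.3 in mock.

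Genes of clot formation and removal split evenly, 3 past the limit upwards and 3 downwards of 10 measured, around a median of -0.04. In all measured genes 8.44% were past it upwards and 7.29% downwards. TFPI was measured only through its SOX2 knockdown value and F13A1 only through its mock value. The counts therefore depend on how genes entered and are a description alone. TFPI, the inhibitor of the tissue factor pathway, read 1677 in SOX2 knockdown and 36.4 in mock and was at least 24.5-fold higher. Its 5 probe sets all reached the floor only on the SOX2 knockdown array. The thrombin receptor F2R read 790 in SOX2 knockdown and 92.0 in mock, 8.59-fold higher, with a difference of 0.01 in its other probe set, and ITGAV differed by 1.44. The clot-stabilising F13A1 read 34.7 in SOX2 knockdown and 314 in mock, at least 4.58-fold lower. PLAU, the urokinase plasminogen activator, read 103 in SOX2 knockdown and 910 in mock, 8.84-fold lower, and ITGA5 differed by -1.06.

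In the renin-angiotensin system, in which AGT supplies the substrate, 4 of 11 matched genes were measured. Lower by 2-fold or more were 3 of these and higher none, where 7.29% and 8.44% of all measured genes were. The median of -1.31 depended on which genes entered, at -0.048 with the floor at the 25th percentile of all values and -0.81 without probe sets of the suffixes _x_at and _s_at. The peptidase MME, which cleaves angiotensin, read 64.6 in SOX2 knockdown and 296 in mock, at least 4.31-fold lower, and was measured only through its mock value. PRCP read 380 and 1109 on these arrays, a difference of -1.54, and the renin receptor ATP6AP2 2143 and 4492, a difference of -1.07. ACE and the angiotensin receptors AGTR1 and AGTR2 were under the floor on both arrays.

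Esterases and lipases related in function to AADAC gave 2 genes past the limit upwards and 1 downwards of 10 measured, around a median of -0.14. All measured genes gave 8.44% upwards and 7.29% downwards. LIPG, the endothelial lipase, read 808 in SOX2 knockdown and 33.8 in mock, at least 11.8-fold higher. LIPG was measured only through its SOX2 knockdown value. MGLL, the monoglyceride lipase, read 2049 in SOX2 knockdown and 162 in mock, 12.6-fold higher. PNPLA3 read 82.4 in SOX2 knockdown and 175 in mock, a difference of -1.09, and the drug-cleaving CES2 differed by -0.92. All companion genes were measured on the same pair of arrays, so their differences share the same cultures.

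Chromosomal neighbours of APOH did not share its difference. The 5 nearest measured genes on each side, taken in RefSeq gene order, held none past the 2-fold limit upwards and 1 downwards. Their median was -0.37 and their highest value 0.33. Around AADAC 3 of 10 neighbours passed the limit upwards and none downwards, and the median of the 10 was 0.58. Of all measured genes on the array, 8.44% passed it upwards and 7.29% downwards. The 3 were SELENOT, at 3365 in SOX2 knockdown and 1113 in mock, TSC22D2, at 1038 and 480, and ARHGEF26, at 197 and 41.8. ARHGEF26 was measured only through its SOX2 knockdown value and was at least 2.87-fold higher. Around the fibrinogen cluster 3 of 10 neighbours were higher and 1 lower as deposited, while all 3 fibrinogen genes stayed under the floor. On one side PDGFC, a growth factor gene, read 2163 in SOX2 knockdown and 95.4 in mock, 22.7-fold higher, and GASK1B read 1482 and 245, 6.06-fold higher. The third, CTSO, read 81.4 in SOX2 knockdown and 17.8 in mock, only 1.19-fold higher against the floor. These neighbours were picked out after their values were seen.

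**Figure D4:**
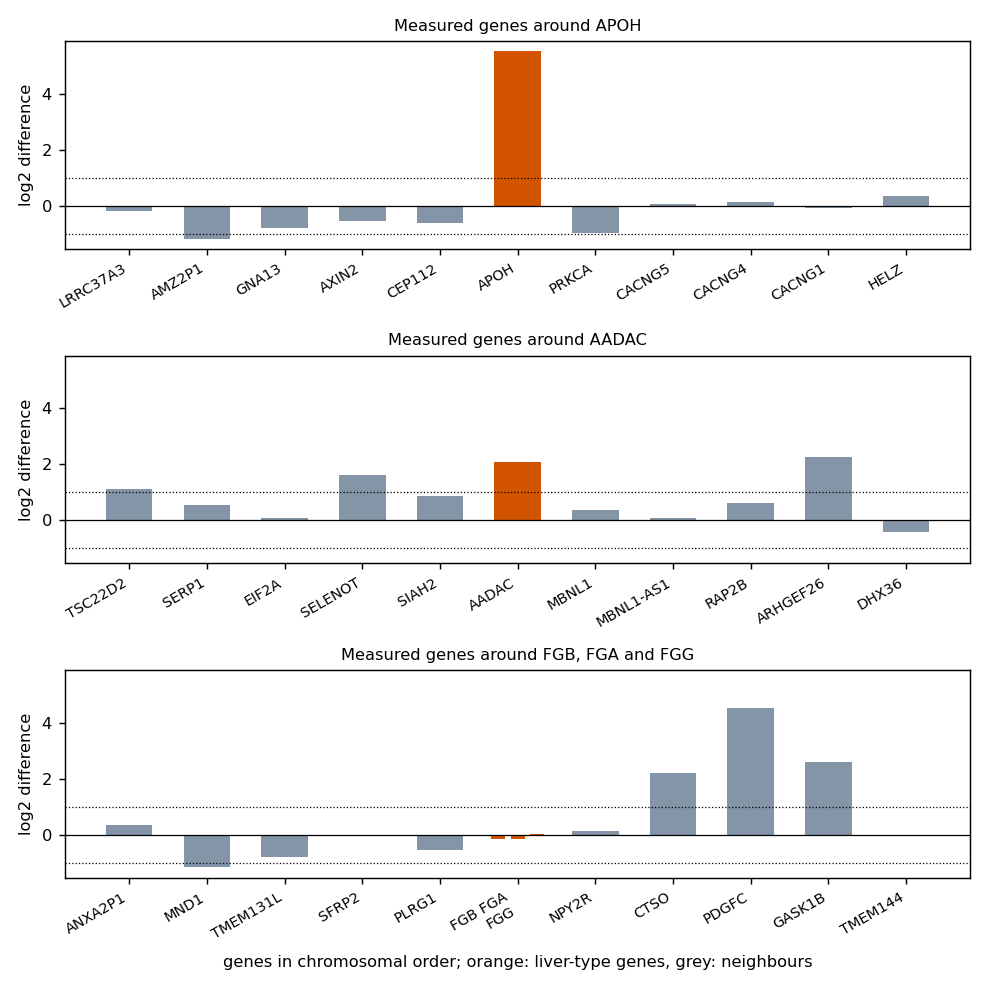
Log2 difference as deposited (SOX2 knockdown minus mock knockdown) of APOH, AADAC and the fibrinogen genes (orange) and of the 5 nearest measured genes on each side (grey) in chromosomal order, with dotted lines at 2-fold. APOH at 5.53 stands among neighbours between -1.20 and 0.33. The fibrinogen genes lie near 0, and NPY2R and CTSO stand between them and PDGFC at 4.50.

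The promoters of the liver-type genes were read to see which known motif letters lie upstream of genes that differed and of genes that stayed under the floor. RefSeq windows of build GRCh38.p14 were matched for 7 of the 10 genes, APOH, AADAC, ALB, FGA, FGB, FGG and AGT. FGB had 2 windows, of which the one farthest upstream was used. TTR, APOB and APOA1 had no entry in the table. The 250 bases before the annotated start are printed for both genes that were higher, and for 3 genes under the floor that hold the palindrome described next. Capitals mark the palindrome GTTAATNATTAAC, known from promoters of liver genes, with up to 2 mismatches outside N, or its arm GTTAAT, on either strand.
APOH, chr17:66229416-66229665, minus strand: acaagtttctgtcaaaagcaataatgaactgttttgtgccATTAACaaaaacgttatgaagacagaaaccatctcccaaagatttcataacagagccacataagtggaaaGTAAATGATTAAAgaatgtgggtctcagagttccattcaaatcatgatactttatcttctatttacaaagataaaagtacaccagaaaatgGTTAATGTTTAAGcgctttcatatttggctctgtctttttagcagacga
AADAC, chr3:151813866-151814115, plus strand: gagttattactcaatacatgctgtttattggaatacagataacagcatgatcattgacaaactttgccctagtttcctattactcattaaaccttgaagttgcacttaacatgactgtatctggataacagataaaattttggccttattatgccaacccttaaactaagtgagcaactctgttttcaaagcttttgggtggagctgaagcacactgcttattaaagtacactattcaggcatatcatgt
ALB, chr4:73404037-73404286, plus strand: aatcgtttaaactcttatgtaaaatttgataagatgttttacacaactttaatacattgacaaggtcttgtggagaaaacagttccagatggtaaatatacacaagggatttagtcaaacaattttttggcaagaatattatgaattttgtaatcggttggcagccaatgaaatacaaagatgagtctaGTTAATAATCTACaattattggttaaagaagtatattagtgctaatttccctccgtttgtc
FGA, chr4:154590743-154590992, minus strand: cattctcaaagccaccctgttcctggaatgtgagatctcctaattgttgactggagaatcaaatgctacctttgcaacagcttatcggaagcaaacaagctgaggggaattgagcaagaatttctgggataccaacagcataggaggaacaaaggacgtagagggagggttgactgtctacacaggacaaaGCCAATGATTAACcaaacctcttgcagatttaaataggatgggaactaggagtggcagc
FGB, chr4:154562730-154562979, plus strand: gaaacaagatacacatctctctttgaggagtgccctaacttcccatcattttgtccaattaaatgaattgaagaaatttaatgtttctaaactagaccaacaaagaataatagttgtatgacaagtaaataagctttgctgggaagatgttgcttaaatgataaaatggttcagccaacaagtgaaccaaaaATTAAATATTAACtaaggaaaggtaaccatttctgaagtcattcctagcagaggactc

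The palindrome was found in 4 of the 7 windows, those of APOH, ALB, FGA and FGB, and in 1.24% of 35116 promoter windows of the same length. Every one of these matches needed 2 mismatches, and with 1 allowed the palindrome was found in 0 of the 7 windows and in 0.137% of all windows. The palindrome is known from promoters of liver genes, so its share among liver-type genes is no result of these arrays. The arm alone was found in the same 4 windows and in 6.23% of all windows, and the match nearest the start overlapped the palindrome in each. In APOH the palindrome lay 49 to 37 and again 140 to 128 bases before the start, and in ALB 61 to 49 bases before it. In FGA it lay 59 to 47 bases before the start and in FGB 58 to 46. The exact arm GTTAAT thus stood upstream of APOH, read at 1512 in SOX2 knockdown, and of 3 genes read under the floor on both arrays. In AADAC, the other gene that was higher, none of the motifs searched was found in this window.

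The other motifs were searched exactly and on both strands. The C/EBP letters TTNNGCAA occurred in ALB, FGA and FGB and in 9.05% of all windows. For FOXA, TGTTTAC occurred in none of the 7 and in 2.98% of all windows, and TGTTTGC in FGA and in 3.23%. For SOX2, CATTGTT occurred in none of the 7 and in 2.87% of all windows, and CTTTGTT in FGA and FGB and in 4.5%. The STAT3 letters TTCCNGGAA occurred in AGT and FGA and in 0.968% of all windows. The direct repeat core CAAAGTCCA was found in none of the 7 and in 0.325%, and the TATA box TATAAA in AGT alone of the 7 and in 10.7%. Neither form of the SOX2 letters was found upstream of APOH or AADAC in these windows. A match is a description of the letters and no sign of binding, and these arrays did not measure binding.

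**Figure D5:**
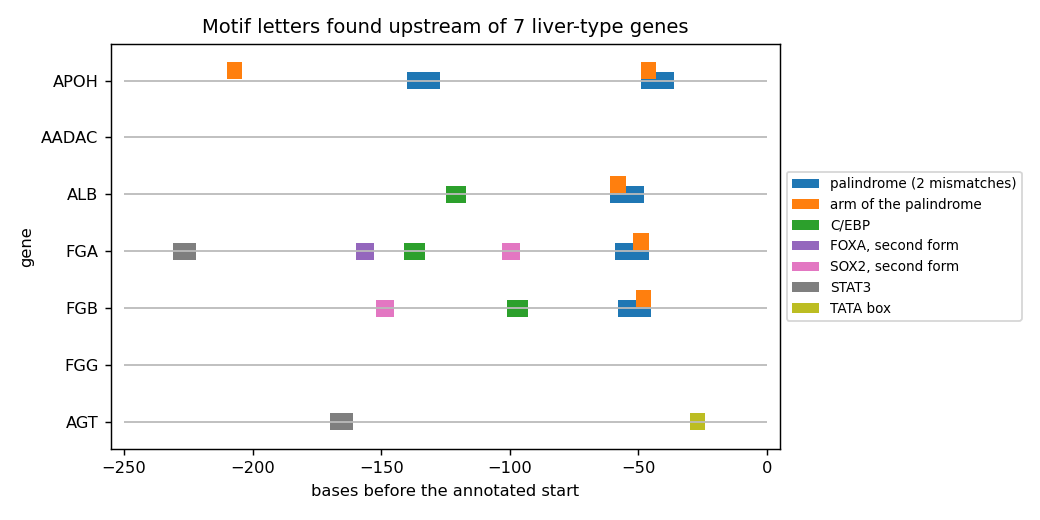
Position of motif letters in the 250 bases before the annotated start of 7 liver-type genes, with the start at 0 on the right and each motif in its own colour. Palindrome matches lie between 61 and 37 bases before the start in APOH, ALB, FGA and FGB, with a second match in APOH, and AADAC and FGG hold none of the motifs.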

How the data were processed

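Total RNA of the 2 cultures was labelled with biotin and hybridised to 1 array each, per the labels' protocols. For each array the authors deposited 1 intensity per probe set, and the submitters' processing notes name RMA. That method subtracts background, equalises distributions between arrays and summarises probes, which hides any change in the total RNA of a cell and leaves no detection call. Neither its version nor the step back to a linear scale is stated in the sources used here.

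Of 54613 probe sets other than controls, 41092 had 1 gene symbol in the platform annotation, 1800 several and 11721 none, and only the first kind was used. All 10 liver-type genes matched a RefSeq table of assembly GRCh38.p14 by Entrez identifier. The deposited intensity was put on the log2 scale without a pseudocount and not normalized again. Counts used a limit of 2-fold, without a test. Genes named are the liver-type genes, SOX2, up to 3 genes per companion list and direction at that limit, and cell type markers under the floor, and others named were chosen after their values were seen. The members, the 14 companion lists (8 of pathways, 6 of cell types), the floor and the alternatives were chosen with earlier results of these data known. Alternatives covered normalization between arrays, the floor, the probe set, a pseudocount of 32 and the limit. Simulated data were used to check the counting. Python 3.11.15, numpy 2.4.6, pandas 2.3.3, statsmodels 0.14.6 and matplotlib 3.10.9 were used.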

Additional observations from a re-analysis of the deposited data

How the results depend on the processing

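No paired analysis was possible because each group held 1 array. APOH and AADAC, the 2 liver-type genes at least 2-fold higher, were both counted under all 3 other normalizations, with values under the floor raised to it, with a pseudocount of 32 and at limits of 1.5-fold and 3-fold, and no alternative counted a liver-type gene at least 2-fold lower. One gene was counted with the floor at the 75th percentile (APOH, and 1 probe set reaching it in place of 5) and 1 without probe sets of the suffixes _x_at and _s_at (AADAC, with 2 probe sets reaching the floor), because the other gene's probe set no longer entered. With both arrays required to reach the floor 0 were counted, since both mock values lie under it. The median over measured liver-type genes depended on which entered: 1.28 for 4 genes, -0.085 with the floor at the 25th percentile (9 genes, 13 probe sets), 5.53 at the 75th, 0.16 with both arrays at the floor, and the mean was 1.98. SOX2 differed by -6.64 as deposited, -4.92 with its value raised to the floor, -5.32 with the pseudocount, -4.05 as a mean of probe sets and -1.47 at the probe set of smallest difference. All genes at the limit numbered 2140, and 4056 and 1071 at 1.5-fold and 3-fold, and companion genes 38, and 21 at 3-fold. With 1 mismatch allowed the palindrome was found in 0 of the 7 promoters, in place of 4. Dim signal limits the rest: a gene under the floor on both arrays has no readable difference.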

Other observations

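Around TTR, whose own difference was 0.49, 3 of the 10 nearest measured genes passed the 2-fold limit upwards and none downwards, and the median was 0.36. The limit was passed by 8.44% of all measured genes upwards and by 7.29% downwards. DSC2, a desmosomal cadherin, read 1025 on the SOX2 knockdown array and 115 on the mock array, GAREM1 379 and 109, and B4GALT6, a galactosyltransferase, 262 and 81.1. Around ALB 2 of 10 neighbours were higher and 1 lower, around APOB none and 1, and around APOA1 and AGT none differed by 2-fold. These genes were picked out after their values were seen.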
